A study of Xenopus laevis with 12 samples.

Results

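Collagens are the main structural proteins of the extracellular matrix. The collagen chains analysed here are the genes of the deposited log2 table whose symbol starts with col, a type number, the letter a and a chain number. This rule, which uses no measured value, found 49 of 26050 genes, namely 28 chains of which 20 were present as both homeologs. *Xenopus laevis* is allotetraploid, and the suffixes .L and .S name the copies on its long and short subgenomes. By known collagen type the 49 genes held 13 interstitial fibrillar genes (types I, III, V and XXIV), 13 cartilage genes (types II, IX, X, XI and XXVII), 8 basement membrane genes (types IV and XVIII), 8 genes of type VI microfibrils and type VIII networks, 5 genes of other fibril-associated types (XII, XIV and XVI) and 2 genes of anchoring or transmembrane types (XIII and XVII). RNA was taken from whole wild-type *X. laevis* embryos at stage 35. They were exposed to 90 µM thioridazine in cohorts of 100 (thioridazine small) or 300 (thioridazine large), or kept without it in cohorts of 100 (control small) or 300 (control large). Embryos of all 4 groups were held at 14 °C before and 18 °C during the exposure period, and each group had 3 libraries of 15 pooled tadpoles. Thioridazine, an antipsychotic of the phenothiazine class, blocks dopamine receptors. By the labels the drug was present from stage 12.5 until 35, yet stage 25 embryos are named too. The study describes an earlier end and a recovery, so the exposure window is unsettled. The study describes the embryos of an experiment as 1 clutch in one place and as a mix from several mothers in another, and the labels name no separate clutches. The p-values measure the spread between these pools, which may be technical.

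A collagen molecule is a helix of alpha chains, and its type fixes where it goes. Chains of types I, III and V form the banded fibrils of dermis, fin and connective tissue. Type II fibrils with type XI inside them and type IX on their surface carry cartilage and the notochord sheath, and type IV forms the sheet of every basement membrane. Chains are hydroxylated and folded in the endoplasmic reticulum, secreted as procollagen, trimmed outside the cell and crosslinked by lysyl oxidases, and matrix metallopeptidases cut them.

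Library totals ranged from 4887343 to 7497662 expected counts. A count of 0 thus allowed up to 3 counts, or 0.399 to 0.620 CPM (counts scaled to library size). After a filter of more than 1.8 CPM in at least 3 libraries, 48 of the 49 genes were among the 25553 tested. The exception was *col10a1.L*, which stood between 0.799 and 1.92 CPM in the 12 libraries. Of the thioridazine libraries, small replicate 1 and large replicate 2 stood farthest from the controls on the first principal component of all genes (63.6 and 47.0, against 4.06 to 28.9 for the other thioridazine and -38.3 to -22.6 for the control libraries). Differences were fitted with limma in 2 ways. The first held 2 surrogate variables, which are axes of variation shared by many genes that are estimated from the libraries and removed. The second held none, an alternative that was raised to a result of its own after the data were seen. For large over small cohorts, the fit without surrogate variables called 30 of all genes higher and 2 lower in controls. In thioridazine embryos it called 3 higher and 16 lower. With 2 surrogate variables the counts were 64 and 11 in controls, and 5 and 19 in thioridazine embryos. The study's own counts for these contrasts equal those of the fit without surrogate variables. Its methods, however, describe 2 surrogate variables and an adjustment for them and for a batch. The study's filter also left fewer genes than were tested here. Why the counts match was not tested. Whether the same genes were called was not tested. Of the variance of the first surrogate variable, 68.0% lay between the thioridazine and the control libraries. The part of this overlap in the results was not tested. The counts of collagen genes called differed between the fits, and both are given. Fold changes are on the log2 scale ± SE, thioridazine over control or large over small, and genes count as called below an adjusted p of 0.05 over all 25553.

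Collagen RNA was lower in most thioridazine libraries than in the controls. The 49 genes together held 10486, 13781 and 11304 CPM in thioridazine small and 11908, 10129 and 12564 CPM in thioridazine large libraries, against 15185, 13487 and 14129 CPM in control small and 14195, 13397 and 15071 CPM in control large libraries. Only thioridazine small replicate 2 reached into the control range. In bulk RNA fewer cells of a type and less RNA per cell cannot be told apart. Of the 48 genes tested, 5 had all 6 thioridazine libraries below all 6 controls, namely *col3a1.S*, *col5a3.S*, *col6a2.L*, *col14a1.L* and *col17a1.L*, and none had the reverse. Over all genes tested the 6 libraries lay wholly below the controls in 2.74% and wholly above in 2.1%.

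With 2 surrogate variables limma called 0 of 48 collagen genes over the average of the cohort sizes, against 0.0391% of all genes called lower and 0.211% called higher. At an unadjusted p under 0.05 it gave 4 lower (3.53% of all genes) and 0 higher (3.54%), and edgeR's quasi-likelihood test and DESeq2 with the same variables also called 0. The median fold change of the 48 genes was 0.01, against 0.00 over all genes, and 23 of 48 values were negative (50.5% of all genes). Without surrogate variables limma called 19 of 48 lower and 0 higher, where 5.14% of all genes were called lower and 3.9% higher. Here the median was -0.25, against 0.00 over all genes, and 45 of 48 values were negative (49% of all genes). edgeR and DESeq2 without surrogate variables called 18 genes each, beside 9.77% and 7.94% of all genes called in either direction. With 1 surrogate variable 0 genes were called. With 3 surrogate variables 25 were called lower, among them all 19. Over all genes that run called 12.3% in either direction, against 9.04% without surrogate variables. The count with 2 surrogate variables moved when single libraries were left out. In the run without control large replicate 3 the weights of these variables fell to 0, and residual singular vectors took their place. Omitting thioridazine small replicate 1 gave 18 (5.69% of all genes called in either direction). Thioridazine small replicate 3 gave 24 (12.5%), thioridazine large replicate 1 gave 2 (1.27%) and thioridazine large replicate 2 gave 17 (3.62%). Control large replicate 3 gave 23 (10.2%). All of these collagen calls were lower. The count of 19 without surrogate variables became 11 without thioridazine small replicate 1 and 11 without thioridazine large replicate 2. It became 12 without control small replicate 1, 10 without control large replicate 3 and 10 without both libraries that stood apart. Over all genes these omissions called 6.30%, 5.96%, 7.12%, 5.74% and 4.60% in either direction, against 9.04% with all libraries. Of the 19 genes, 9 were called lower under each of the 20 alternatives run without surrogate variables: *col1a1.L*, *col1a1.S*, *col1a2.S*, *col3a1.S*, *col5a3.S*, *col6a1.S*, *col6a2.L*, *col14a1.L* and *col17a1.L*.

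**Figure D1:**
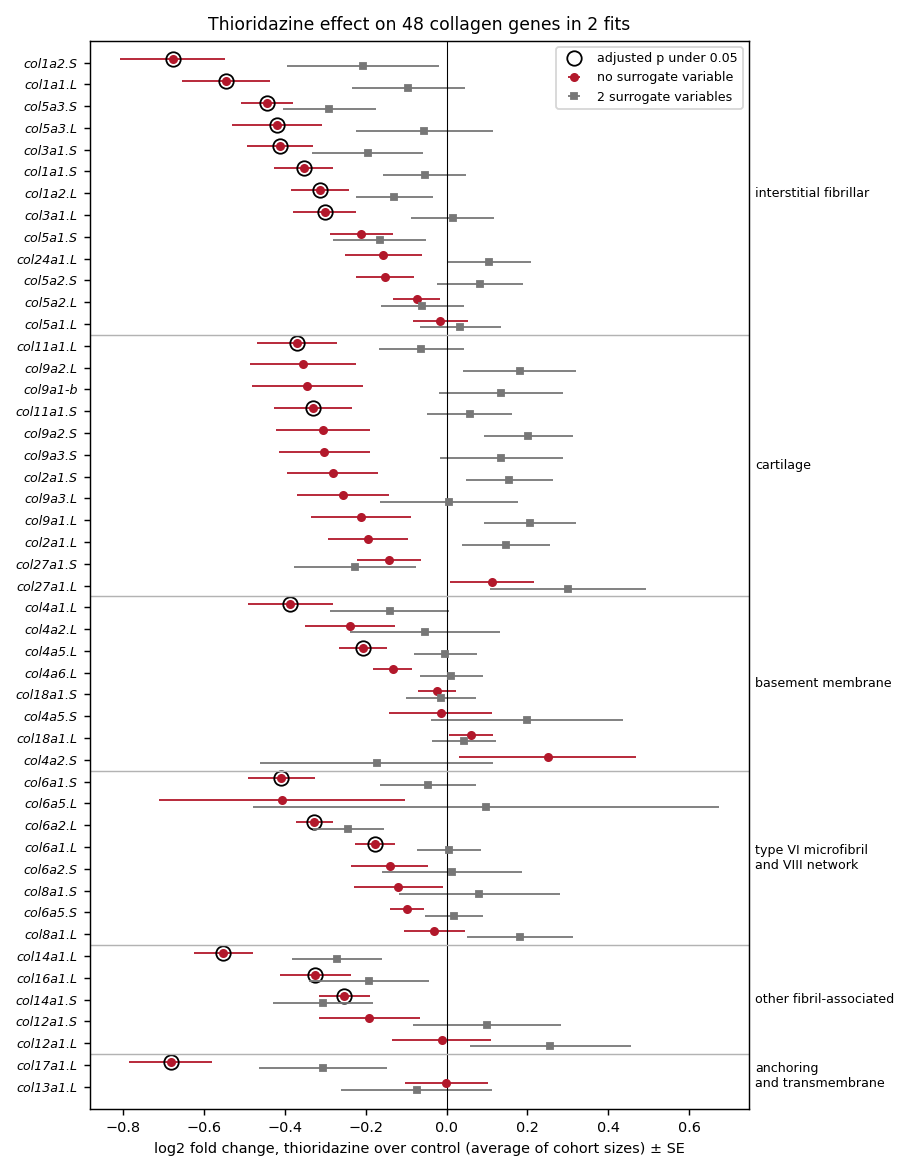
Log2 fold change of the 48 collagen genes tested (thioridazine over control, average of the cohort sizes, ± SE), by collagen class, without surrogate variables (red circles) and with 2 surrogate variables (grey squares). Circled points have an adjusted p under 0.05: 19 of 48 without surrogate variables, all below 0, and 0 with them.

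Of the 10 genes whose call without surrogate variables did not last through every omission of libraries, *col1a2.L* lost its call only when both libraries that stood apart were left out (a log2 difference of -0.25), and 9 lost it without single libraries. *col3a1.L* lost its call without thioridazine small replicate 1, thioridazine large replicate 2, control small replicate 3 or control large replicates 2 or 3, with log2 differences of -0.29 to -0.24. *col5a3.L* lost its call without thioridazine small replicates 1 or 3, thioridazine large replicate 2, control small replicates 1 or 2 or control large replicates 1 or 3, with log2 differences of -0.42 to -0.35. Both are interstitial genes. *col4a1.L* lost its call without thioridazine small replicates 1 or 3, thioridazine large replicate 2, control small replicates 1 or 2 or control large replicates 2 or 3, with log2 differences of -0.40 to -0.32. *col4a5.L* lost its call without thioridazine small replicate 1, thioridazine large replicate 2, control small replicates 1 or 2 or control large replicates 1, 2 or 3, with log2 differences of -0.22 to -0.16. These were the basement membrane calls. *col6a1.L* lost its call without thioridazine small replicates 1 or 3, thioridazine large replicates 2 or 3, control small replicates 1, 2 or 3 or control large replicates 2 or 3, with log2 differences of -0.19 to -0.15. *col14a1.S* lost its call without thioridazine large replicate 3 or control large replicate 3, with log2 differences of -0.24 to -0.23. *col16a1.L* lost its call without thioridazine small replicates 1 or 3, thioridazine large replicates 1 or 2, control small replicate 1 or control large replicates 1 or 3, with log2 differences of -0.34 to -0.27. The remaining pair, *col11a1.L* and *col11a1.S*, is given with the cartilage genes. All of these differences stayed negative.

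The interstitial fibrillar genes, the largest class tested, held the most calls in the fit without surrogate variables. There 8 of 13 were called lower with a median of -0.31, against 0 of 13 and a median of -0.06 with surrogate variables. By share the other fibril-associated genes were close, with 3 of 5 called lower. Beside these and the class counts below, 5.14% of all genes were called lower without and 0.0391% with surrogate variables. *col1a1.L* and *col1a1.S* encode the alpha 1 chain of type I collagen, the main fibril of skin and bone. *col1a1.L* stood at 622, 1080.1 and 763 CPM in thioridazine small and 846, 669.6 and 938 in thioridazine large libraries, against 1334, 1137 and 1151 in control small and 1209, 1020.0 and 1213 in control large libraries. For *col1a1.L* the groups overlapped between the cohort sizes but not within them. *col1a1.S* stood at 1313, 1916 and 1601 CPM in thioridazine small and 1701, 1519.8 and 1793 in thioridazine large libraries, against 2296, 2136 and 2111 in control small and 2086, 1818 and 2066 in control large libraries. For *col1a1.S* the groups overlapped between the cohort sizes but not within them. In both copies every thioridazine library but small replicate 2 lay below all controls. *col1a1.L* differed by -0.09 ± 0.14 (adjusted p = 0.948) with surrogate variables and -0.54 ± 0.11 (adjusted p = 0.00629) without, and *col1a1.S* by -0.05 ± 0.10 (adjusted p = 0.957) with surrogate variables and -0.35 ± 0.07 (adjusted p = 0.00732) without. *col1a2* encodes the alpha 2 chain that joins alpha 1 in the type I molecule. *col1a2.L* stood at 855, 1098 and 885 CPM in thioridazine small and 1007, 903 and 1121 in thioridazine large libraries, against 1350.1, 1115 and 1163 in control small and 1216, 1119.9 and 1298 in control large libraries. For *col1a2.L* the groups overlapped in large but not in small cohorts. It differed by -0.13 ± 0.10 (adjusted p = 0.854) with surrogate variables and -0.31 ± 0.07 (adjusted p = 0.0127) without. Its S copy measured 105, 165 and 216 CPM (lowest, median and highest) in the thioridazine libraries, against 211, 258 and 316 in the controls, and differed by -0.21 ± 0.19 (adjusted p = 0.892) with surrogate variables and -0.68 ± 0.13 (adjusted p = 0.00462) without, the lowest fold change of the class in the fit without surrogate variables.

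Type III collagen is found beside type I in stretchable tissue. *col3a1.S* stood at 171, 255 and 194 CPM in thioridazine small and 203, 209 and 254 in thioridazine large libraries, against 264, 263 and 263 in control small and 284, 300.4 and 324 in control large libraries. The highest thioridazine library (255 CPM) lay below the lowest control (263 CPM), and the fold change was -0.19 ± 0.14 (adjusted p = 0.836) with surrogate variables and -0.41 ± 0.08 (adjusted p = 0.00576) without. *col3a1.L* measured 355, 424 and 509 CPM (lowest, median and highest) in the thioridazine libraries, against 475, 523 and 566 in the controls, which overlapped, and differed by 0.02 ± 0.10 (adjusted p = 0.993) with surrogate variables and -0.30 ± 0.08 (adjusted p = 0.0240) without. Type V chains sit inside type I fibrils and set their width. *col5a3.S* stood at 198, 266 and 233 CPM in thioridazine small and 232, 229 and 215 in thioridazine large libraries, against 310.2, 268 and 303 in control small and 327, 312 and 347 in control large libraries, with no overlap. It differed by -0.29 ± 0.12 (adjusted p = 0.598) with surrogate variables and -0.44 ± 0.06 (adjusted p = 0.000716) without, and *col5a3.L*, with overlap, by -0.05 ± 0.17 (adjusted p = 0.981) with surrogate variables and -0.42 ± 0.11 (adjusted p = 0.0281) without. None of *col5a1.L*, *col5a1.S*, *col5a2.L* and *col5a2.S* was called in either fit, and their fold changes without surrogate variables ranged from -0.21 to -0.02. *col3a1* and *col5a2* lie next to each other in RefSeq order on both subgenomes. Without surrogate variables only *col3a1* was called, while with 3 surrogate variables *col5a2.S* was called lower too. A test of the difference within the pair was not run. *col24a1.L* differed by 0.11 ± 0.10 (adjusted p = 0.907) with surrogate variables and -0.16 ± 0.10 (adjusted p = 0.349) without.

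The sum over the 13 interstitial genes was 4614 to 6522 CPM in the thioridazine libraries and 6509 to 7432 CPM in the controls. Of 5 fibroblast and dermis marker symbols 4 were found (8 genes, none at 0 in any group), their summed level was 659 to 795 CPM in the thioridazine libraries and 744 to 848 CPM in the controls, and 3 of 8 (*dcn.S*, *lum.L* and *lum.S*) were called lower without surrogate variables and 0 with them. Over all genes 5.14% were called lower without surrogate variables and 0.0391% with them. The median log2 difference of the 8 marker genes was -0.05 without and -0.06 with surrogate variables. Their part in the collagen result was not tested.

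**Figure D2:**
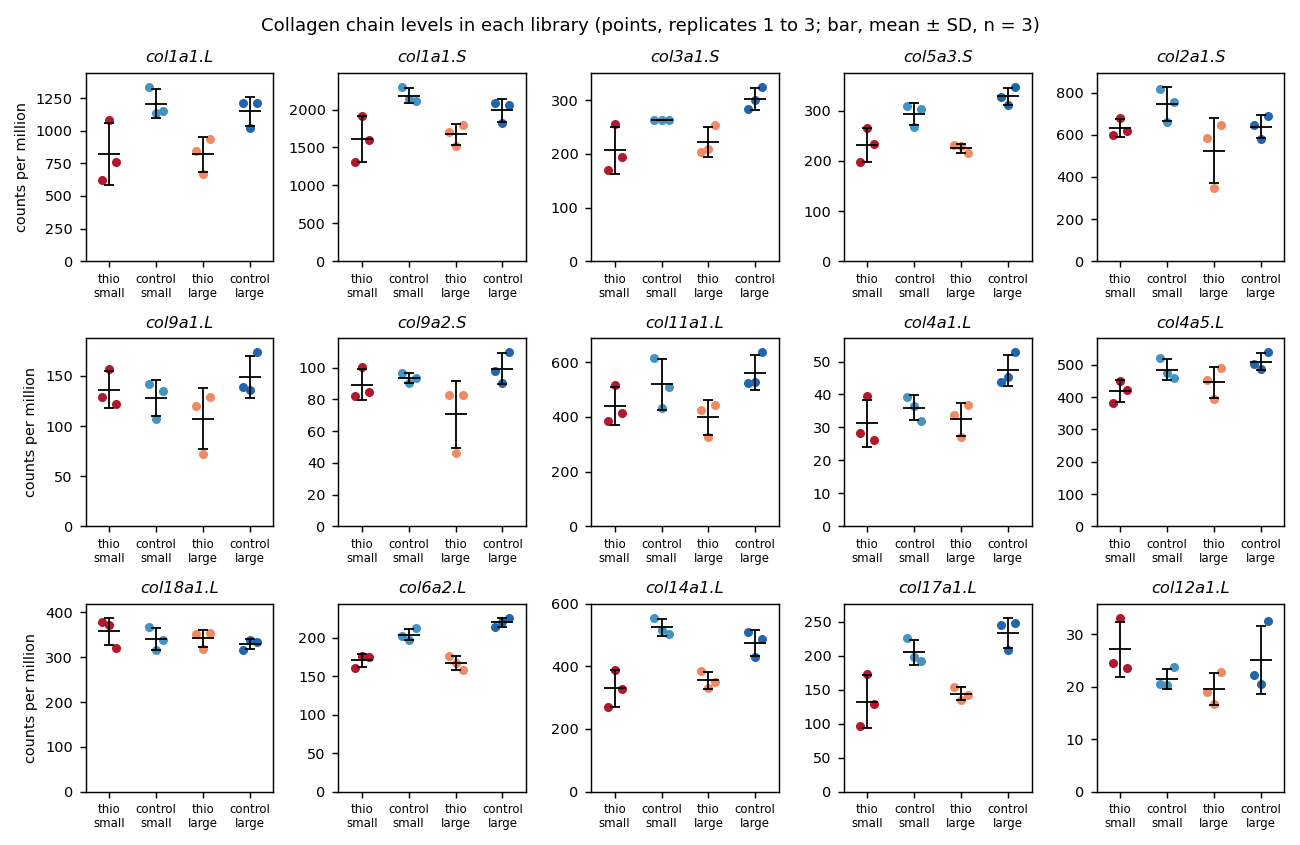
Levels of 15 collagen genes in CPM, 1 panel a gene, with the 3 libraries of each group as points and their mean ± SD as bars, and with thioridazine left of control at each cohort size. In *col3a1.S*, *col5a3.S*, *col6a2.L*, *col14a1.L* and *col17a1.L* all thioridazine points lie below all control points, while in *col2a1.S*, *col9a1.L* and *col9a2.S* thioridazine large replicate 2 alone lies far below the rest.

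Cartilage collagens gave 2 of 12 calls without surrogate variables (*col11a1.L* and *col11a1.S*) and 0 of 12 with them. The direction depended on the fit: the median was -0.29 with 11 of 12 values negative without surrogate variables, and 0.14 with 2 of 12 negative with 2 surrogate variables. With 1 surrogate variable it was 0.16 with 2 of 12 negative. With 3 it was -0.34 with 11 of 12 negative and 7 of 12 called lower, beside 12.3% of all genes called in either direction. Without both libraries that stood apart it was -0.17 with 11 of 12 negative with 2 surrogate variables, and -0.15 with 11 of 12 negative without. *col2a1* encodes the chain of type II collagen, the fibril of cartilage and of the notochord sheath. *col2a1.L* stood at 798, 976 and 736 CPM in thioridazine small and 761, 514 and 822 in thioridazine large libraries, against 953, 839 and 973 in control small and 821, 736 and 873 in control large libraries. For *col2a1.L* the groups overlapped at both cohort sizes. *col2a1.S* stood at 601, 681 and 618 CPM in thioridazine small and 583, 348 and 645 in thioridazine large libraries, against 819.7, 660.0 and 758 in control small and 646, 581 and 688 in control large libraries. For *col2a1.S* the groups overlapped at both cohort sizes. The lowest library of both was thioridazine large replicate 2. *col2a1.L* differed by 0.15 ± 0.11 (adjusted p = 0.859) with surrogate variables and -0.19 ± 0.10 (adjusted p = 0.250) without, and *col2a1.S* by 0.16 ± 0.11 (adjusted p = 0.829) with surrogate variables and -0.28 ± 0.11 (adjusted p = 0.138) without. *col11a1* encodes a type XI chain of the cartilage fibril core. *col11a1.L* stood at 384, 518 and 415 CPM in thioridazine small and 424, 326 and 445 in thioridazine large libraries, against 615, 432 and 509 in control small and 524, 526 and 636 in control large libraries. For *col11a1.L* the groups overlapped in small but not in large cohorts. *col11a1.S* measured 298, 393 and 517 CPM (lowest, median and highest) in the thioridazine libraries, against 427, 482 and 582 in the controls. *col11a1.L* differed by -0.06 ± 0.11 (adjusted p = 0.955) with surrogate variables and -0.37 ± 0.10 (adjusted p = 0.0291) without, and *col11a1.S* by 0.06 ± 0.11 (adjusted p = 0.955) with surrogate variables and -0.33 ± 0.10 (adjusted p = 0.0434) without. Neither call was kept without thioridazine small replicate 1 (-0.33 for *col11a1.L* and -0.27 for *col11a1.S*), without thioridazine large replicate 2 (-0.30 and -0.26) or without both (-0.26 and -0.20), nor without control small replicate 1 (-0.30 and -0.29), control small replicate 3 (-0.37 and -0.34) or control large replicate 3 (-0.32 and -0.29), and *col11a1.S* was also lost without thioridazine small replicate 3 (-0.32) or control large replicate 1 (-0.34).

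Type IX collagen coats the type II fibril. Apart from gene models without a collagen symbol, given further below, its 3 chains were measured by 6 genes, *col9a1.L*, *col9a1-b*, *col9a2.L*, *col9a2.S*, *col9a3.L* and *col9a3.S*. None was called without or with 2 surrogate variables, while with 3 surrogate variables 4 of the 6 were called lower (*col9a1-b*, *col9a2.L*, *col9a2.S* and *col9a3.S*). With 3 surrogate variables 12.3% of all genes were called in either direction. *col9a2.S* stood at 82.3, 101 and 84.8 CPM in thioridazine small and 82.5, 46.1 and 83.0 in thioridazine large libraries, against 96.6, 90.0 and 93.4 in control small and 98.0, 90.2 and 109.6 in control large libraries. For *col9a2.S* the groups overlapped in small but not in large cohorts. *col9a1.L* stood at 129, 157 and 122 CPM in thioridazine small and 120.2, 72.6 and 129.5 in thioridazine large libraries, against 142, 107 and 135 in control small and 139, 136 and 174 in control large libraries. For *col9a1.L* the groups overlapped in small but not in large cohorts. Thioridazine large replicate 2 was again the lowest library of both. *col9a2.S* differed by 0.20 ± 0.11 (adjusted p = 0.763) with surrogate variables and -0.31 ± 0.12 (adjusted p = 0.115) without, and *col9a1.L* by 0.21 ± 0.11 (adjusted p = 0.770) with surrogate variables and -0.21 ± 0.12 (adjusted p = 0.331) without. *col27a1.L* and *col27a1.S*, fibrillar chains of developing cartilage, differed by 0.30 ± 0.19 (adjusted p = 0.811) with surrogate variables and 0.11 ± 0.10 (adjusted p = 0.566) without, and by -0.23 ± 0.15 (adjusted p = 0.817) with surrogate variables and -0.14 ± 0.08 (adjusted p = 0.302) without. Thioridazine large replicate 2 was the lowest thioridazine library for 11 of the 13 cartilage genes of the table, and thioridazine small replicate 1 for 9 of the 13 interstitial genes. Cartilage markers other than collagens (5 of 7 symbols found, 9 genes, none at 0 in any group) summed to 286 to 386 CPM in the thioridazine libraries and 337 to 417 CPM in the controls, and 0 of 9 were called in either fit. Notochord markers (2 of 3 symbols found, 3 genes) summed to 27.1 to 33.2 CPM in the thioridazine libraries and 22.3 to 30.4 CPM in the controls. Their part was not tested.

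**Figure D3:**
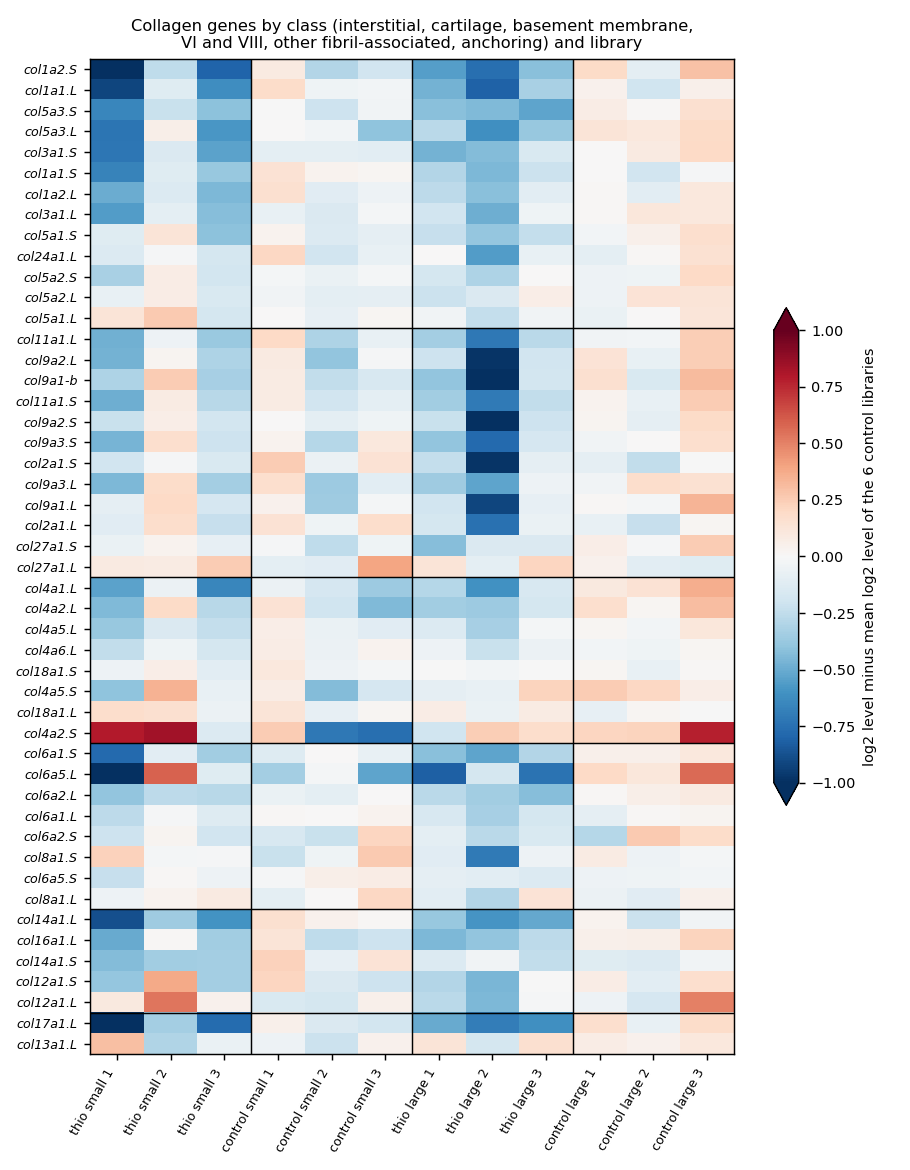
Log2 level of the 48 collagen genes tested in each of the 12 libraries, as the difference from the mean of the 6 control libraries (blue, lower, and red, higher, with colours ending at 1 log2 unit), with genes by class and each thioridazine group left of its control. The cartilage block is darkest in thioridazine large replicate 2, and the interstitial block in thioridazine small replicate 1.

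The ratio of the summed cartilage to the summed interstitial level, read only across libraries because neither sum is scaled to gene length, was 0.504 to 0.560 in thioridazine small against 0.423 to 0.478 in control small libraries, with no overlap. It was 0.365 to 0.466 in thioridazine large against 0.434 to 0.465 in control large libraries, with overlap. The ratio was not tested.

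Basement membrane genes gave 2 of 8 calls without surrogate variables (*col4a1.L* and *col4a5.L*), with a median of -0.08, and 0 of 8 with them, with a median of -0.01. *col4a1* with *col4a2* builds the type IV network found in all basement membranes. Type IV gene models without a collagen symbol are given further below. *col4a1.L* stood at 28.4, 39.5 and 26.2 CPM in thioridazine small and 33.7, 27.0 and 36.8 in thioridazine large libraries, against 39.4, 36.5 and 31.9 in control small and 43.9, 45.4 and 52.8 in control large libraries. For *col4a1.L* the groups overlapped in small but not in large cohorts. It differed by -0.14 ± 0.15 (adjusted p = 0.916) with surrogate variables and -0.39 ± 0.11 (adjusted p = 0.0320) without. *col4a2.L*, which neighbours *col4a1.L* in RefSeq order, differed by -0.05 ± 0.18 (adjusted p = 0.984) with surrogate variables and -0.24 ± 0.11 (adjusted p = 0.204) without. *col4a5* and *col4a6* encode a second network of kidney and muscle membranes. *col4a5.L* stood at 382, 449.7 and 422 CPM in thioridazine small and 453, 394 and 491 in thioridazine large libraries, against 521, 475 and 459 in control small and 503, 488 and 538 in control large libraries. For *col4a5.L* the groups overlapped in large but not in small cohorts. *col4a5.L* differed by -0.00 ± 0.08 (adjusted p = 0.998) with surrogate variables and -0.21 ± 0.06 (adjusted p = 0.0389) without. Its neighbour in RefSeq order is *col4a6.L*. *col4a6.L* stood at 260.2, 299.6 and 272 CPM in thioridazine small and 297, 264 and 295 in thioridazine large libraries, against 324, 296 and 315 in control small and 303, 299 and 312 in control large libraries. For *col4a6.L* the groups overlapped in small but not in large cohorts. *col4a6.L* differed by 0.01 ± 0.08 (adjusted p = 0.993) with surrogate variables and -0.13 ± 0.05 (adjusted p = 0.105) without. Type XVIII carries the endostatin fragment. *col18a1.L* stood at 378, 373 and 322 CPM in thioridazine small and 353, 319 and 354 in thioridazine large libraries, against 367, 316 and 339 in control small and 316, 338 and 334 in control large libraries. For *col18a1.L* the groups overlapped at both cohort sizes. *col18a1.L* differed by 0.04 ± 0.08 (adjusted p = 0.956) with surrogate variables and 0.06 ± 0.05 (adjusted p = 0.553) without. With a median SE of 0.12 over the 48 genes in the first and 0.10 in the second fit, small differences in these chains were not resolved.

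Type VI collagen forms beaded microfibrils around cells. Of the 8 genes of types VI and VIII, 3 were called lower without surrogate variables (*col6a1.L*, *col6a1.S* and *col6a2.L*), with a median of -0.16, and 0 with them, with a median of 0.02. *col6a2.L* stood at 161, 177 and 174 CPM in thioridazine small and 176, 167 and 158 in thioridazine large libraries, against 202, 198 and 212 in control small and 213, 221 and 226 in control large libraries. For *col6a2.L* no thioridazine library reached the control range. It differed by -0.24 ± 0.09 (adjusted p = 0.545) with surrogate variables and -0.33 ± 0.05 (adjusted p = 0.000589) without. *col6a1.S* measured 106, 139 and 169 CPM (lowest, median and highest) in the thioridazine libraries, against 166, 185 and 195 in the controls, and differed by -0.05 ± 0.12 (adjusted p = 0.977) with surrogate variables and -0.41 ± 0.08 (adjusted p = 0.00703) without. *col6a1.L* stood at 217, 258 and 237 CPM in thioridazine small and 233, 207 and 229.7 in thioridazine large libraries, against 262, 260.3 and 266 in control small and 245, 262 and 266 in control large libraries. For *col6a1.L* the groups overlapped between the cohort sizes but not within them. *col6a1.L* differed by 0.01 ± 0.08 (adjusted p = 0.995) with surrogate variables and -0.18 ± 0.05 (adjusted p = 0.0391) without. *col6a5.S* stood at 731, 864 and 827 CPM in thioridazine small and 804, 797 and 781 in thioridazine large libraries, against 852, 893 and 901 in control small and 827, 829.6 and 843 in control large libraries. For *col6a5.S* the groups overlapped in small but not in large cohorts. *col6a5.S* differed by 0.02 ± 0.07 (adjusted p = 0.985) with surrogate variables and -0.10 ± 0.04 (adjusted p = 0.165) without. *col6a5.L* stood at 0.592 to 2.64 CPM, close to the limit of detection. The type VIII genes *col8a1.L* and *col8a1.S* (a network of vessel and corneal membranes) differed by 0.18 ± 0.13 (adjusted p = 0.850) with surrogate variables and -0.03 ± 0.08 (adjusted p = 0.858) without, and by 0.08 ± 0.20 (adjusted p = 0.976) with surrogate variables and -0.12 ± 0.11 (adjusted p = 0.563) without.

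Of the 5 other fibril-associated genes, 3 were called lower without surrogate variables (*col14a1.L*, *col14a1.S* and *col16a1.L*) and 0 with them. Type XIV binds the surface of type I fibrils. *col14a1.L* stood at 271, 389 and 328 CPM in thioridazine small and 383, 331 and 350.0 in thioridazine large libraries, against 556, 514 and 502 in control small and 509.5, 429 and 486 in control large libraries. For *col14a1.L* no thioridazine library reached the control range. It differed by -0.27 ± 0.11 (adjusted p = 0.630) with surrogate variables and -0.55 ± 0.07 (adjusted p = 0.000368) without, the smallest p of the collagen genes without surrogate variables. *col14a1.S* stood at 57.1, 60.5 and 60.9 CPM in thioridazine small and 70.0, 75.3 and 65.0 in thioridazine large libraries, against 90.4, 72.8 and 84.8 in control small and 71.0, 70.1 and 75.1 in control large libraries. For *col14a1.S* the groups overlapped in large but not in small cohorts. *col14a1.S* differed by -0.30 ± 0.12 (adjusted p = 0.614) with surrogate variables and -0.25 ± 0.06 (adjusted p = 0.0212) without. *col16a1.L*, which joins fibrils in dermis and cartilage, differed by -0.19 ± 0.15 (adjusted p = 0.861) with surrogate variables and -0.32 ± 0.09 (adjusted p = 0.0303) without. Type XII is found in tendon and fin. *col12a1.S* stood at 57.0, 97.1 and 58.9 CPM in thioridazine small and 60.9, 54.3 and 74.3 in thioridazine large libraries, against 86.7, 67.3 and 64.5 in control small and 78.7, 69.4 and 84.0 in control large libraries. For *col12a1.S* the groups overlapped at both cohort sizes. *col12a1.S* differed by 0.10 ± 0.18 (adjusted p = 0.955) with surrogate variables and -0.19 ± 0.12 (adjusted p = 0.385) without, and *col12a1.L* by 0.26 ± 0.20 (adjusted p = 0.862) with surrogate variables and -0.01 ± 0.12 (adjusted p = 0.972) without.

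Type XVII is a transmembrane collagen of the hemidesmosome, which ties epidermal cells to the basement membrane. *col17a1.L* stood at 96.0, 173 and 128 CPM in thioridazine small and 154, 135 and 143 in thioridazine large libraries, against 226, 198 and 192 in control small and 245, 208 and 248 in control large libraries. For *col17a1.L* no thioridazine library reached the control range. It differed by -0.31 ± 0.16 (adjusted p = 0.747) with surrogate variables and -0.68 ± 0.10 (adjusted p = 0.000928) without, the lowest fold change of the 48 genes without surrogate variables. Epidermis markers (4 of 4 symbols found, 7 genes, none at 0 in any group) summed to 3196 to 4898 CPM in the thioridazine libraries and 4578 to 5662 CPM in the controls. Without surrogate variables, where 5.14% of all genes were called lower, 1 of the 7 markers was (*itln1.L*). The median log2 difference of the 7 markers was 0.00 without surrogate variables, with values from -0.49 to 0.48. With 2 surrogate variables it was -0.20, with values from -0.37 to 0.03. Their part was not tested. *col13a1.L* encodes a transmembrane collagen of nerve-muscle contacts. *col13a1.L* stood at 24.2, 15.9 and 18.7 CPM in thioridazine small and 21.5, 17.4 and 22.0 in thioridazine large libraries, against 19.0, 17.0 and 20.2 in control small and 20.6, 20.2 and 21.1 in control large libraries. For *col13a1.L* the groups overlapped at both cohort sizes. *col13a1.L* differed by -0.07 ± 0.19 (adjusted p = 0.976) with surrogate variables and -0.00 ± 0.10 (adjusted p = 0.999) without.

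Within cohort sizes the overlap counts of the 2 treatment contrasts were read from separate libraries. The limma fits of both contrasts shared the same model over all 12 libraries. In small cohorts 11 of 48 collagen genes had all 3 thioridazine libraries below all 3 controls (11% of all genes) and 0 had them above (10.7% of all genes). In large cohorts 28 of 48 lay wholly below (12.2% of all genes) and 0 wholly above (11.6% of all genes). By class, the counts wholly below were 8 of 13 interstitial, 9 of 12 cartilage, 3 of 8 basement membrane, 5 of 8 type VI and VIII, 2 of 5 other fibril-associated and 1 of 2 anchoring genes in large cohorts, and 5, 0, 1, 2, 2 and 1 of the same classes in small cohorts. The cartilage genes wholly below in large cohorts included the 6 genes with a type IX symbol.

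With 2 surrogate variables limma called 0 of 48 genes in either cohort size (in small cohorts 0.0117% of all genes lower and 0.149% higher, in large cohorts 0.102% lower and 0.121% higher), and edgeR and DESeq2 with these variables also called 0. At an unadjusted p under 0.05 limma gave 2 lower and 3 higher in small cohorts (2.83% and 3.27% of all genes). In large cohorts it gave 3 lower and 0 higher (4.49% and 4.13%). The smallest p in small cohorts belonged to *col14a1.S* at -0.53 ± 0.15 (adjusted p = 0.405), followed by *col9a1.L* at 0.43 ± 0.14 (adjusted p = 0.571), *col9a2.S* at 0.40 ± 0.13 (adjusted p = 0.580), *col14a1.L* at -0.38 ± 0.14 (adjusted p = 0.662) and *col12a1.L* at 0.55 ± 0.24 (adjusted p = 0.780). The value of *col9a2.S* turned to -0.07 without surrogate variables. In large cohorts they were *col6a2.L* at -0.33 ± 0.09 (adjusted p = 0.259), *col5a3.S* at -0.40 ± 0.12 (adjusted p = 0.308), *col27a1.S* at -0.39 ± 0.16 (adjusted p = 0.512), *col17a1.L* at -0.35 ± 0.17 (adjusted p = 0.595) and *col16a1.L* at -0.31 ± 0.16 (adjusted p = 0.620). The count of 0 in small cohorts became 6 lower without thioridazine small replicate 1, 13 lower and 1 higher without thioridazine small replicate 3, 8 lower without thioridazine large replicate 2 and 12 lower and 1 higher without control large replicate 3. In large cohorts the same omissions gave 24, 20, 5 and 15 lower. Over all genes they called 0.790%, 7.16%, 1.43% and 5.97% in either direction in small cohorts. In large cohorts these shares were 4.84%, 3.92%, 1.49% and 2.44%. The run without control large replicate 3 again held residual singular vectors in place of surrogate variables.

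Without surrogate variables limma called 5 of 48 lower in small cohorts (1.51% of all genes lower, 1.31% higher). *col14a1.L* fell by 0.68 ± 0.10 (adjusted p = 0.00296), *col14a1.S* fell by 0.47 ± 0.09 (adjusted p = 0.0124), *col17a1.L* fell by 0.66 ± 0.15 (adjusted p = 0.0248), *col1a1.S* fell by 0.45 ± 0.10 (adjusted p = 0.0289) and *col6a2.L* fell by 0.25 ± 0.06 (adjusted p = 0.0475) on the log2 scale. In large cohorts it also called 5 of 48 lower (1.31% of all genes lower, 0.927% higher). These were *col6a2.L* at -0.40 ± 0.06 (adjusted p = 0.00620), *col5a3.S* at -0.54 ± 0.09 (adjusted p = 0.00703), *col17a1.L* at -0.70 ± 0.14 (adjusted p = 0.0212), *col6a1.S* at -0.48 ± 0.12 (adjusted p = 0.0473) and *col14a1.L* at -0.42 ± 0.10 (adjusted p = 0.0473). Each count moved with single libraries. In small cohorts, leaving out thioridazine small replicate 1 gave 1, thioridazine small replicate 2 gave 11, and control small replicates 1, 2 and 3 gave 1, 2 and 3. In large cohorts, leaving out thioridazine large replicate 2 or control large replicates 1 or 3 gave 2. Leaving out thioridazine large replicate 3, control large replicate 2 or control small replicates 2 or 3 gave 3. Thioridazine small replicate 1 gave 10 when omitted, and thioridazine small replicate 2 gave 13. Over all genes these omissions called 0.963% to 1.82% in small and 0.546% to 2.98% in large cohorts, in either direction. With all libraries these shares were 2.81% and 2.24%.

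Cohort size was compared next, large over small, since the study asks whether group size changes the response to the drug. In controls 9 of 48 genes had all 3 large libraries above all 3 small ones (8.52% of all genes) and 2 below (7.46% of all genes). With 2 surrogate variables limma called 0 of 48 (0.25% of all genes higher, 0.043% lower), with 2 higher (5.54% of all genes) and 4 lower (3.87%) at an unadjusted p under 0.05. Without surrogate variables it also called 0 (0.117% of all genes higher, 0.00783% lower). edgeR called 0 in either fit, while DESeq2 with 2 surrogate variables called 1, *col2a1.S*, lower. *col2a1.S* stood at 646, 581 and 688 CPM in control large libraries, against 819.7, 660.0 and 758 in control small libraries, and differed by -0.38 ± 0.08 (adjusted p = 0.0683) with surrogate variables and -0.22 ± 0.16 (adjusted p = 0.741) without. *col2a1.L* stood at 821, 736 and 873 CPM in control large libraries, against 953, 839 and 973 in control small libraries, and differed by -0.32 ± 0.09 (adjusted p = 0.170) with surrogate variables and -0.18 ± 0.14 (adjusted p = 0.765) without. Both overlapped, and both were the type II chain. *col4a1.L* stood at 43.9, 45.4 and 52.8 CPM in control large libraries, against 39.4, 36.5 and 31.9 in control small libraries, with no overlap, and differed by 0.27 ± 0.11 (adjusted p = 0.457) with surrogate variables and 0.39 ± 0.14 (adjusted p = 0.418) without. *col4a2.S* differed by 0.64 ± 0.23 (adjusted p = 0.347) with surrogate variables and 0.77 ± 0.32 (adjusted p = 0.503) without, and *col1a1.S* by -0.20 ± 0.08 (adjusted p = 0.438) with surrogate variables and -0.13 ± 0.10 (adjusted p = 0.771) without.

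In thioridazine embryos all 12 cartilage genes had a negative fold change, large over small, in both fits (median -0.31 with and -0.25 without surrogate variables), but none was called. Of all genes, 49.5% were negative with and 50% without surrogate variables. The 8 genes of types VI and VIII were also all negative in both fits (median -0.15 with and -0.07 without surrogate variables). So were the 10 skeletal muscle markers (-0.10 and -0.13), and of the 9 cartilage markers other than collagens 9 were negative with and 8 without surrogate variables (-0.23 and -0.23). limma called 0 of 48 collagen genes with 2 surrogate variables (0.0196% of all genes higher, 0.0744% lower) and 0 without (0.0117% higher, 0.0626% lower), and edgeR and DESeq2 also called 0. At an unadjusted p under 0.05 it gave 1 higher (3.64% of all genes) and 11 lower (3.69%) with 2 surrogate variables. The groups did not overlap in 3 genes that were lower in large cohorts (*col8a1.S*, *col12a1.L* and *col27a1.S*, 5.28% of all genes) and in 1 that was higher (*col14a1.S*, 5.44% of all genes). *col9a2.S* stood at 82.5, 46.1 and 83.0 CPM in thioridazine large libraries, against 82.3, 101 and 84.8 in thioridazine small libraries, and differed by -0.47 ± 0.09 (adjusted p = 0.0771) with surrogate variables and -0.39 ± 0.17 (adjusted p = 0.697) without. *col9a1.L* stood at 120.2, 72.6 and 129.5 CPM in thioridazine large libraries, against 129, 157 and 122 in thioridazine small libraries, and differed by -0.40 ± 0.10 (adjusted p = 0.198) with surrogate variables and -0.38 ± 0.18 (adjusted p = 0.721) without. Large replicate 2 alone lay below the small libraries by a wide margin in both. *col2a1.S* differed by -0.37 ± 0.09 (adjusted p = 0.204) with surrogate variables and -0.32 ± 0.16 (adjusted p = 0.739) without, *col9a1-b* by -0.46 ± 0.13 (adjusted p = 0.320) with surrogate variables and -0.41 ± 0.20 (adjusted p = 0.725) without and *col2a1.L* by -0.31 ± 0.09 (adjusted p = 0.363) with surrogate variables and -0.28 ± 0.14 (adjusted p = 0.741) without. Without thioridazine large replicate 2 the median of the 12 genes was 0.02 with 2 surrogate variables, 5 of 12 were negative, and values ranged from -0.19 to 0.16. Without surrogate variables the median was then -0.07 and 10 of 12 were negative. For the 8 genes of types VI and VIII that omission gave a median of -0.03 with 6 of 8 negative in both fits. The marker genes were not read without that library. In the fit with 2 surrogate variables and that library left out, *col9a2.S* was at -0.03, *col9a1.L* at -0.01, *col2a1.S* at 0.01, *col9a1-b* at 0.03 and *col2a1.L* at 0.03.

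**Figure D4:**
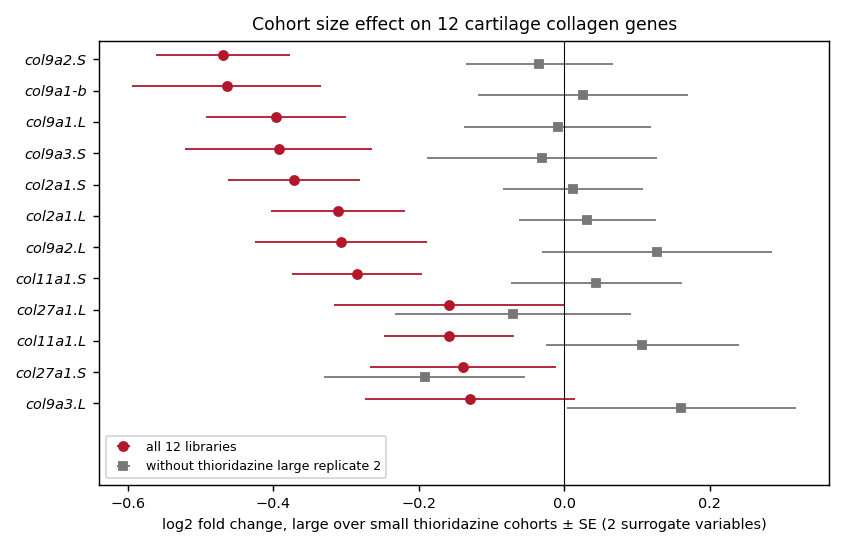
Log2 fold change (large over small thioridazine cohorts, ± SE, 2 surrogate variables) of the 12 cartilage collagen genes tested, with all 12 libraries (red circles) and without thioridazine large replicate 2 (grey squares). All 12 red points lie below 0, while without that library 5 of 12 do (10 of 12 in the fit without surrogate variables, which is not drawn).

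The interaction of thioridazine and cohort size called 0 of 48 collagen genes in either fit with limma (0.00783% of all genes higher and 0.0665% lower with 2 surrogate variables, 0% higher and 0.0196% lower without), and edgeR and DESeq2 also called 0. At an unadjusted p under 0.05 it gave 1 higher (3.61% of all genes) and 6 lower (3.98%) with 2 surrogate variables. The smallest p belonged to *col9a1.L* at -0.44 ± 0.13 (adjusted p = 0.418), *col14a1.S* at 0.46 ± 0.14 (adjusted p = 0.445), *col9a2.S* at -0.40 ± 0.13 (adjusted p = 0.462), *col9a1-b* at -0.50 ± 0.18 (adjusted p = 0.521) and *col12a1.L* at -0.59 ± 0.23 (adjusted p = 0.570). No difference in the thioridazine effect between cohort sizes was therefore detected for a collagen gene.

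In the 20 chains with both copies in the table, the share of counts from the S copy was above 50% in all 12 libraries for 6 chains and below 50% in all for 14. For *col4a5* it was 2.40 to 3.38% in the thioridazine libraries, against 1.89 to 2.86% in the controls, and for *col6a5* 99.7 to 99.9% in the thioridazine libraries, against 99.7 to 99.9% in the controls. The authors' counting estimates how reads common to both copies are split, which limits these shares, and they were not tested. The share of *col5a1* was 28.4 to 30.0% in the thioridazine libraries, against 30.3 to 32.7% in the controls, the only chain of the 20 with no overlap. Only collagen pairs were read, so the share of all homeolog pairs without overlap is not known. For *col1a2* it was 10.97 to 16.5% in the thioridazine libraries, against 15.9 to 19.6% in the controls, which overlapped, and for *col1a1* 63.9 to 69.4% in the thioridazine libraries, against 63.0 to 65.3% in the controls.

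Genes that fold, secrete, trim, degrade or bind collagen were read from a list of 84 tested genes. With 2 surrogate variables 0 of 84 were called over the average of cohort sizes. At an unadjusted p under 0.05 there were 2 higher and 2 lower, beside 3.54% and 3.53% of all genes. Without surrogate variables 5 were called higher and 4 lower, beside 3.9% and 5.14% of all genes. By role these were 1 higher and 1 lower of 29 genes of folding and modification, 1 higher of 9 of secretion, 2 lower of 22 of processing and crosslinking, 3 higher and 1 lower of 16 of degradation, and 0 of 8 receptors. The genes called lower included *lox.L* (lysyl oxidase, which crosslinks collagen) and *sparc.L* (a collagen-binding matrix protein that aids fibril assembly). *lox.L* stood at 4.11, 3.43 and 5.96 CPM in thioridazine small and 5.86, 5.95 and 5.12 in thioridazine large libraries, against 8.38, 12.8 and 10.9 in control small and 7.45, 9.94 and 10.9 in control large libraries, with no overlap, and differed by -0.75 ± 0.33 (adjusted p = 0.667) with surrogate variables and -0.94 ± 0.17 (adjusted p = 0.00333) without. *sparc.L* measured 251, 274 and 296 CPM (lowest, median and highest) in the thioridazine libraries, against 307, 325 and 338 in the controls, with no overlap, and differed by -0.16 ± 0.09 (adjusted p = 0.754) with surrogate variables and -0.24 ± 0.05 (adjusted p = 0.00452) without. *colgalt2.S* (which adds galactose to collagen hydroxylysine) measured 18.1, 20.5 and 22.0 CPM (lowest, median and highest) in the thioridazine libraries, against 24.2, 24.9 and 28.9 in the controls, and *mmp16.S* (a membrane-bound metallopeptidase) 7.75, 10.5 and 10.9 CPM (lowest, median and highest) in the thioridazine libraries, against 11.4, 13.6 and 15.8 in the controls, both without overlap.

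Among the genes called higher, *serpinh1.S* (the collagen chaperone HSP47) measured 136, 147 and 202 CPM (lowest, median and highest) in the thioridazine libraries, against 113, 129 and 141 in the controls, and differed by 0.20 ± 0.11 (adjusted p = 0.765) with surrogate variables and 0.33 ± 0.07 (adjusted p = 0.0106) without. *creb3l2.S* (a transcription factor that drives secretory pathway genes in cartilage) measured 23.3, 25.0 and 27.5 CPM (lowest, median and highest) in the thioridazine libraries, against 16.7, 20.7 and 21.6 in the controls, with no overlap, and differed by 0.29 ± 0.15 (adjusted p = 0.738) with surrogate variables and 0.31 ± 0.07 (adjusted p = 0.0159) without. *mmp1.S* (an interstitial collagenase) stood at 129, 23.0 and 34.4 CPM in thioridazine small and 8.07, 63.5 and 10.2 in thioridazine large libraries, against 6.29, 5.55 and 6.01 in control small and 5.33, 1.86 and 1.67 in control large libraries. All thioridazine libraries lay above all controls, and the 2 highest were the libraries that stood apart. *mmp1.S* differed by 0.07 ± 0.28 (adjusted p = 0.985) with surrogate variables and 2.74 ± 0.82 (adjusted p = 0.0474) without, and *mmp13.S*, a further collagenase with overlap, by 0.63 ± 0.47 (adjusted p = 0.859) with surrogate variables and 1.25 ± 0.30 (adjusted p = 0.0175) without. *mmp1.L* was at 0 in 4 control libraries and reached 2.99 CPM in the controls and 18.5 CPM in the thioridazine libraries. Between cohort sizes *lox.S* was lower in large than in small control cohorts, at 23.8, 22.3 and 26.8 CPM in large and 31.6, 33.9 and 34.1 CPM in small cohorts. It differed by -0.55 ± 0.11 (adjusted p = 0.0450) with surrogate variables and -0.45 ± 0.14 (adjusted p = 0.322) without. With 2 surrogate variables this was the single call of the 84 genes in that contrast, beside 0.043% of all genes lower and 0.25% higher. *lox.S* was not read with libraries left out.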

How the data were processed

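Total RNA of 12 pools was sequenced after rRNA depletion from a stranded kit as single 75-nucleotide reads. The authors aligned reads with Bowtie2 (rRNA) and STAR and deposited expected counts per gene from RSEM (32.6% of values not whole) for 42638 genes, and a table of log2 CPM (counts scaled to library size) for 26050 genes. The submitters' processing notes give no tool versions. RSEM divides reads shared by homeologs or other near-identical genes, so single copies are uncertain. TMM-scaled values recomputed from the deposited expected counts matched the deposited log2 values within 5.0e-14. CPM values here were computed from the expected counts, divided by library totals that were scaled with the TMM factors. Nothing was added to the counts before scaling.

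The 25553 genes with over 1.8 CPM in 3 or more libraries were tested with limma-voom (limma 3.58.1, edgeR 4.0.16, sva 3.50.0, R 4.3.3) with 2 surrogate variables over all 12 libraries, Benjamini-Hochberg adjustment over all genes and a threshold of 0.05. The study's methods name a batch, but the labels give none, so none was fitted. The fit without surrogate variables, and DESeq2 1.42.0 on rounded expected counts, were alternatives, beside other scaling, filters, sample weights, a replicate block and leaving out each library. Thioridazine and size contrasts share libraries and are given side by side. By rule, values in each library are given for the 3 collagen genes of each class with the highest mean CPM. Fold changes are given for the genes called and, with fewer than 5 called in a contrast, for the 5 with the smallest p. Of the genes that handle collagen, those called are named, at most 5 a direction. The collagen genes and values beyond this rule were chosen after they were seen. The members, classes and gene lists were chosen with earlier results of these data known. The steps were run on simulated data whose shared axis of variation was drawn without regard to treatment. That run cannot show how the fits behave where such an axis differs between treatments. Replicate pairs differed by more than counting noise (chi-square per degree of freedom 2.38 to 5.68 in 12 pairs), so none was a duplicate. Limits from a count of 0 cover counting error only. Of gene IDs, 94.0% were in RefSeq, which gave product names and gene order only. Lengths and sequences were not used here.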

Additional observations from a re-analysis of the deposited data

Results flagged for a closer look

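For 13 gene and contrast pairs every library of one group moved one way and every library of the other moved the opposite way relative to the reference mean. Only collagen genes were checked, so the share over all genes that belongs beside this count is not known. The values are interaction fold changes with 2 surrogate variables, and in none did the interaction pass the test (limma, adjusted p of 0.418 to 0.862).

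Thioridazine over control was up in each small and down in each large library for *col12a1.L* (-0.59), *col27a1.S* (-0.34) and *col4a2.S* (-0.66). The size contrast, large over small, was up in controls and down in thioridazine libraries for *col16a1.L* (-0.24), *col27a1.S* (-0.34), *col4a2.L* (-0.36), *col4a2.S* (-0.66), *col5a1.S* (-0.14), *col5a3.S* (-0.23), *col6a5.L* (-1.12) and *col9a1.L* (-0.44). It was down in controls and up in thioridazine libraries for *col14a1.L* (0.21) and *col14a1.S* (0.46). *col27a1.S* and *col4a2.S* are listed in both contrasts, and *col6a5.L* stood close to the limit of detection.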

How the results depend on the processing

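With 2 surrogate variables the count of collagen genes called was 0 in each contrast. Over the average of cohort sizes it became 19 with no surrogate variable, 25 with 3 surrogate variables, 18 with edgeR and 18 with DESeq2 without surrogate variables, and 6 with both libraries that stood apart left out, all lower, and 0 to 24 when single libraries were left out. In small cohorts these settings gave 5, 10, 5, 7 and 1, the libraries of the compared groups alone gave 2, and leaving out single libraries 0 to 14. In large cohorts they gave 5, 19, 4, 11 and 5, the compared groups alone 15, and single libraries 0 to 24. Over all genes the named settings called 9.04%, 12.3%, 9.77%, 7.94% and 0.902% in either direction on average. In small cohorts these shares were 2.81%, 5.08%, 3.40%, 3.31% and 0.336%, and 1.31% with the compared groups alone. In large cohorts they were 2.24%, 5.01%, 2.68%, 2.93% and 0.910%, and 3.36% with the compared groups alone. In the size contrast of controls DESeq2 gave 1, beside 0.466% of all genes. For the size contrast of thioridazine embryos and the interaction no alternative run changed the count of 0.

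Of 18 same-numbered pairs of libraries 1 had a correlation of deviations over 0.1 (range -0.15 to 0.10, other pairs -0.13 to 0.17). Deviations from a mean of 3 libraries depend on each other. They cannot show whether the replicate numbers mark a batch or a clutch. A replicate block without surrogate variables gave 15 genes on average, 3 in small and 5 in large cohorts, and with 2 surrogate variables it gave 1 (*col2a1.S*, lower) in the control size contrast. Over all genes these runs called 8.60%, 2.09%, 2.05% and 0.329% in either direction.

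Without surrogate variables the count of 19 became 10 with both libraries left out and 10 to 24 without single libraries. The 10 without control large replicate 3 stood beside 5.74% of all genes in either direction. The share beside the 24 is not given here. The count in small cohorts became 3 with the replicate block, 2 with both left out and 1 to 11 without single libraries. The count in large cohorts became 11 with DESeq2, 3 with a filter of at least 1 count in 1 library, 10 with sample quality weights and 2 to 13 without single libraries. Of all genes tested in each run, DESeq2, the filter and the weights called 2.93%, 1.02% and 3.44% there in either direction. With both libraries left out the shares were 4.60% on average and 1.57% in small cohorts.

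The sign turned for *col9a1.L* in small cohorts without thioridazine large replicate 2 (range without single libraries -0.0999 to 0.687). For *col9a2.S* in small cohorts it turned with no surrogate variable (-0.0701), 3 surrogate variables (-0.0963), the replicate block without surrogate variables (-0.0755), the compared groups alone (-0.0703), both libraries left out (-0.0650), edgeR (-0.0693) and DESeq2 (-0.0660) without surrogate variables, and without thioridazine small replicate 3, thioridazine large replicate 2 or control large replicate 3 (range without single libraries -0.155 to 0.585). In the thioridazine size contrast it turned without thioridazine large replicate 2 for *col2a1.S* (range -0.528 to 0.0122), *col9a1-b* (-0.610 to 0.0264) and *col2a1.L* (-0.441 to 0.0318). The cause was not tested.

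Levels per coding length were not run, as no lengths were used. Without control large replicate 3 the surrogate variable weights fell to 0 and residual singular vectors were used in their place. With 3 pools a group and a median SE of 0.12 over the collagen genes (average of cohort sizes, 2 surrogate variables), small differences were not resolved. This median SE was 0.15 in small cohorts with 2 surrogate variables. For the interaction it was 0.14 with 2 and 0.19 without surrogate variables.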

Other observations

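Of RefSeq gene models with a placeholder symbol, 27 that were tested have a product name of a collagen alpha chain, a set chosen after the files had been seen. With 2 surrogate variables limma called 0 of 27 over the average of cohort sizes. At an unadjusted p under 0.05 it gave 3 higher and 3 lower, beside 3.54% and 3.53% of all genes. The higher models at that p included type IX alpha 1 (*LOC108718011*) and type IX alpha 2 (*LOC108719125*). *LOC108718011* differed by 0.41 ± 0.13 (adjusted p = 0.404) with surrogate variables and -0.39 ± 0.14 (adjusted p = 0.111) without. *LOC108719125* differed by 0.47 ± 0.16 (adjusted p = 0.451) with and -0.33 ± 0.16 (adjusted p = 0.221) without. A further type IX alpha 1 model (*LOC108716915*) was at 0.33 with and -0.26 without. The lower models at an unadjusted p under 0.05 included type IV alpha 1-like (*LOC108709739*). It differed by -0.76 ± 0.17 (adjusted p = 0.103) with and -0.30 ± 0.11 (adjusted p = 0.120) without, and the groups overlapped. The value of 0.103 was the smallest adjusted p of the 27 models with surrogate variables. In small and large cohorts *LOC108709739* was at -0.74 and -0.78 with surrogate variables. A further type IV model (*LOC108700099*) was at -0.02 with and -0.13 without. edgeR and DESeq2 were not counted for this set. Without surrogate variables 4 models were called lower and 0 higher, beside 5.14% and 3.9% of all genes. They were named as type VII alpha 1 (*LOC108714669*, the anchoring fibril of skin), which differed by -0.26 ± 0.11 (adjusted p = 0.668) with surrogate variables and -0.49 ± 0.09 (adjusted p = 0.00440) without, type XXVIII alpha 1 (*LOC108702985*) by -0.05 ± 0.09 (adjusted p = 0.955) with surrogate variables and -0.24 ± 0.06 (adjusted p = 0.0232) without, type I alpha 1 (*LOC108698165*) by -0.29 ± 0.13 (adjusted p = 0.669) with surrogate variables and -0.30 ± 0.07 (adjusted p = 0.0142) without and type VI alpha 3 (*LOC398368*) by -0.23 ± 0.15 (adjusted p = 0.811) with surrogate variables and -0.37 ± 0.08 (adjusted p = 0.0135) without. *LOC108714669* measured 62.0, 72.1 and 91.4 CPM (lowest, median and highest) in the thioridazine libraries, against 87.5, 104 and 119 in the controls, with overlap. In large cohorts 11 of 27 models lay wholly below the controls and 0 above, beside 12.2% and 11.6% of all genes. The count for small cohorts is not given here. Without surrogate variables the median log2 difference of the 27 models was -0.17 in small and -0.38 in large cohorts. With 2 surrogate variables it was 0.15 and 0.02.

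A further 9 collagen symbols occur only in the count table (*col6a6.L*, *col6a6.S*, *col8a2.L*, *col8a2.S*, *col10a1.S*, *col17a1.S*, *col20a1.L*, *col21a1.L* and *col21a1.S*), with 11 to 92 counts each over all 12 libraries, and were not tested. Markers of neural tissue (4 of 4 symbols, 6 genes) summed to 460 to 588 CPM in the thioridazine libraries and 668 to 721 CPM in the controls, and those of the eye lens (2 of 3 symbols, 3 genes) to 43.4 to 60.6 CPM in the thioridazine libraries and 90.3 to 117 CPM in the controls. Skeletal muscle markers (6 of 6 symbols, 10 genes) summed to 9247 to 12866 CPM in the thioridazine libraries and 9909 to 11903 CPM in the controls. Red blood cell markers (4 of 5 symbols, 5 genes) summed to 369 to 455 CPM in the thioridazine libraries and 225 to 553 CPM in the controls. Among the controls they were at 225 to 411 CPM in small and 454 to 553 CPM in large cohorts, with no overlap. For large over small controls the smallest adjusted p of the 5 genes (limma) was 0.0162 with and 0.0446 without surrogate variables.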
